A study of Mus musculus with 20 samples.

Results

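The solute carrier genes (symbols of the form Slc, family number, a, member number) encode membrane proteins that move sugars, amino acids, ions, metals, vitamins and metabolites across the plasma membrane and the membranes of organelles. The mouse count table lists 329 such symbols among 23329, and 180 of them are described here. The 180 were chosen by their measured level, 5 or more CPM (a count scaled by the total of its library, so that all libraries have the same sum) in at least 3 of 20 libraries. The level itself is therefore no finding. A transporter that met the rule through 1 group had to differ from the groups without it. Just inside the rule, the third-highest library stood at 5.04 CPM for Slc25a27, 5.41 CPM for Slc8a3 and 5.48 CPM for Slc4a5. Just outside it stood Slc25a29 with 4.94 CPM and Slc36a2 with 4.83 CPM. At a minimum of 1 CPM the rule would have kept 228 symbols, and at 10 CPM 163.

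Bulk libraries of polyadenylated RNA were prepared with a Smart-Seq kit from cells of C57BL/6 mice sorted by flow cytometry, and 2 kinds of tumour macrophage were compared in 2 mouse glioma models. Bone marrow derived macrophages (BMDM) and microglia (MG), the resident macrophages of the brain, were sorted from the same tumours, 3 tumours of each model. The first model, here GL261, is a mouse glioma line. The age of its hosts at injection is given as 5 to 6 weeks. Its implantation is not otherwise described in the sources used here. The second, here GEMM, arose after DF1 chicken fibroblasts that release RCAS-PDGFB-HA virus and RCAS virus with a hairpin against P53 were injected into the brain of Flt3:Cre Rosa26:mTmG mice at 5 to 6 weeks of age. In those mice Flt3:Cre switches the reporter of cells that descend from bone marrow progenitors to GFP. Tumour cells of both kinds were CD45+ CD11b+ Ly6C- Ly6G-, BMDM being GFP+ TdTomato- and MG being GFP- TdTomato+. Whether the GL261 hosts and the mice behind the other groups carried that reporter is not given. The groups were GL261 BMDM, GEMM BMDM, GL261 MG and GEMM MG with 3 libraries each, and as references MG of normal brain with 3 libraries and Ly6C-high monocytes of blood with 5 libraries.

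Library totals lay between 18850626 and 22088979 counts in BMDM of GL261 and between 30048409 and 32913488 in BMDM of GEMM. Those of MG lay between 18113450 and 20934656 in GL261 and between 23064781 and 36297826 in GEMM, against 5077787 to 7801073 in monocytes and 26421803 to 30391652 in normal MG. Markers of microglia (7 genes, P2ry12 and Tmem119 among them) summed to 2594 to 8881 CPM in GL261 MG, lowest in tumour 80769, 12701 to 19154 CPM in GEMM MG and 30823 to 34370 CPM in normal MG, and to 712 to 1616 CPM in GL261 BMDM and 2942 to 5854 CPM in GEMM BMDM. Markers of oligodendrocyte precursors or glioma cells (6 genes, 5 of them with counts in GL261) summed to 426 to 998 CPM in GL261 MG, 115 to 176 CPM in GEMM MG, with 147 to 348 CPM in BMDM of GL261 and 13.1 to 81.4 CPM in BMDM of GEMM, against at most 4.16 CPM in normal MG and 1.38 CPM in monocytes. Their part in the results below was not tested. The female transcript Xist was at 144.7 to 617 CPM in monocytes and at most 2.73 CPM in the other groups, so comparisons with monocytes also compare females with males. The ribosomal transcript Rn45s took 13.5% and 14.3% of counts in monocyte libraries 64820 and 64821, against 1.05% to 1.62% in the other 3. In bulk RNA, fewer cells of a type and less RNA per cell cannot be told apart.

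Solute carriers are usually sorted by cargo. Facilitative glucose transporters of the Slc2a family let hexoses run down their gradient, and Slc16a proteins carry lactate together with a proton. Slc7a light chains reach the cell surface as partners of the heavy chain Slc3a2 and exchange one amino acid for another. Iron enters the cytosol from phagosomes and endosomes, is used in mitochondria and leaves the cell through a single exporter, ferroportin (Slc40a1). In brain, microglia are known for the fructose transporter Slc2a5, and macrophages that clear red cells for heme and iron carriers.

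Promoters of 4 transporters that recur below are shown with the short motifs that a search of both strands found in them. RefSeq (GRCm38.p6) held 175 promoters for 133 of the 180 transporters, each reaching from 250 bases before to 50 bases after a transcription start. The first motif, TGATGNAA, is the core of the amino acid response element, a site known to bind the stress factor ATF4. It was found in 3.97% of all 32851 promoters, 4% of the transporters' promoters and 14.3% of the 28 promoters of amino acid transporters, those of Slc7a11, Slc1a4 and Slc7a7. The second, ACGTG, is the core of the hypoxia response element and was found in 19.6% of all promoters and 29.7% of those of the transporters. Each sequence runs 5′ to 3′ on the strand of its gene, and capitals mark the motif, on either strand.
Slc7a11 (chr3:50443564-50443863, minus strand, TGATGNAA in both directions): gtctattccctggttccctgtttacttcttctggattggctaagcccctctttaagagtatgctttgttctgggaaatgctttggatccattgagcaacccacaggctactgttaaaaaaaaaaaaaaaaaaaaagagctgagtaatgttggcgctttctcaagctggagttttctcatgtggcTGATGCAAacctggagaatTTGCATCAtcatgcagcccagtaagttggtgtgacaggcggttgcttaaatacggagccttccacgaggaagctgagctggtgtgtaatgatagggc
Slc1a4 (chr11:20332664-20332963, minus strand, TGATGNAA on the opposite strand): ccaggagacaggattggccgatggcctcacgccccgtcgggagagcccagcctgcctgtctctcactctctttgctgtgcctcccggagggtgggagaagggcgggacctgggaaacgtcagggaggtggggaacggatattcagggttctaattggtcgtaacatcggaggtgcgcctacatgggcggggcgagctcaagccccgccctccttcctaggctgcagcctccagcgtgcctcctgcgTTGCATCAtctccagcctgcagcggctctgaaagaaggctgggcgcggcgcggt
Slc2a1 (chr4:119108495-119108794, plus strand, ACGTG): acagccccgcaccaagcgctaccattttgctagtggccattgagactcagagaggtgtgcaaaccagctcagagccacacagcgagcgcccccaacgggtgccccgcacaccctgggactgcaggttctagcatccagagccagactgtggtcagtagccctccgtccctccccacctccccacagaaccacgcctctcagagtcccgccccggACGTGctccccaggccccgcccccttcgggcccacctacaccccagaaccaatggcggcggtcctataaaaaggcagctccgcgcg
Slc16a3 (chr11:120948817-120949116, plus strand, ACGTG in 2 places): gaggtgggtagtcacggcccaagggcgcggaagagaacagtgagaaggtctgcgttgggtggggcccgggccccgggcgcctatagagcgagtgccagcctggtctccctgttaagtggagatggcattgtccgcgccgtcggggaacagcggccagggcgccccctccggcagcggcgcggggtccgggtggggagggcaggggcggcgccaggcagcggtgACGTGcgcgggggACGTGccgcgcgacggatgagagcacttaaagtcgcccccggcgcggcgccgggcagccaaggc

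In these windows Slc7a11 holds a pair of TGATGNAA matches in opposite directions and Slc16a3 a pair of ACGTG matches close to the start. A match is a description of the letters and does not show that a factor binds there.

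Most of the 180 transporters were present throughout. Of them, 121 averaged 5 CPM or more in all 6 groups and 12 did so in 1 group only. Normal MG alone held Slc16a9, Slc10a1, Slc39a12 and Slc1a2 at that level, GL261 MG alone Slc5a8, Slc8a3, Slc5a1 and Slc4a5, monocytes alone Slc6a4 and Slc24a1, GL261 BMDM alone Slc4a11 and GEMM BMDM alone Slc52a3. By cargo, 32 were mitochondrial carriers, 30 carried ions, 27 amino acids, 18 zinc or copper, 13 sugars, 9 iron or heme and 7 monocarboxylates. Per kilobase of exon, the highest mean levels over the groups belonged to Slc25a5 (676 CPM per kb), the ADP/ATP carrier of the inner mitochondrial membrane, to Slc25a3 (165 CPM per kb), which brings phosphate into mitochondria, and to Slc11a1 (163 CPM per kb), the phagosomal metal pump NRAMP1. The heavy chain Slc3a2 followed with 141 CPM per kb and ferroportin with 88.4 CPM per kb.

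All tests came from 1 edgeR quasi-likelihood fit to the counts of 15363 genes over all 20 libraries, scaled by trimmed mean of M-values (TMM). Differences are log2 fold changes with their standard error (SE), and a transporter is called higher or lower where its p, adjusted by Benjamini-Hochberg over those 15363 genes, is under 0.05. CPM values carry no TMM factor, and the factors of 1.17 to 1.28 in GL261 MG set fold changes below the ratio of CPM there. Where another setting ended the call of a transporter named with its fold change, its adjusted p in that setting is given, also from edgeR unless stated. P-values rest on the spread between libraries within groups, estimated for each gene over all groups together and not only over those compared. This spread may be technical where the labels do not name separate animals. Monocyte libraries 64818 and 64819 were nearly alike (chi-square per degree of freedom 3.20), as were 64820 and 64821 (4.28). All other pairs within a group stood at 19.1 to 246. Whether the libraries of these alike pairs came from separate animals is not given. Comparisons with monocytes may therefore rest on fewer than 5 independent libraries. The alike pairs also enter the spread used in all other comparisons.

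Counted over all cargoes, more transporters were called between tumour macrophages and monocytes or normal MG than between BMDM and MG of a tumour. The same order held among all genes tested, so it is not particular to transporters. Within GEMM tumours, 23 transporters were called higher in BMDM than in MG and 29 lower. This was 12.8% and 16.1% of the 180, beside 12.7% and 8.1% of all genes tested and 14.7% and 9.63% of the 11562 genes that met the same level rule. Single libraries moved these counts, to 11 higher without MG library 68702, 14 without MG library BB30105 and 15 without BMDM library BB30101, and to 17 lower without BMDM library BB30101 and 19 without BMDM library BB30105. Within GL261 tumours 22 were higher in BMDM than in MG and 13 lower, beside 10.7% and 6.81% of all genes tested and 13.6% and 7.56% under the same rule. The counts were 14 higher without MG library 80767 or BMDM library 80769, and 8 lower without BMDM library 80766. Fitting these 2 groups alone gave 7 higher and 7 lower, and leaving out scaling factors gave 10 and 41, when the median of all genes moved by -0.30 on the log2 scale.

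Against normal MG, 42 transporters were higher and 37 lower in GEMM MG, beside 23% and 20.9% of all genes tested and 26.6% and 24.9% under the same rule. The count of lower ones was 22 without GEMM MG library 68702, 23 without normal library 67573 and 24 without GEMM MG library BB30101. In GL261 MG 53 were higher and 58 lower than in normal MG, beside 30.6% and 27.2% of all genes and 32.2% and 32.3% under the same rule. With no scaling factors these 2 counts were 69 and 37, and the median of all genes moved by 0.31. Both comparisons share the normal libraries.

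Against blood monocytes, 78 transporters were higher and 36 lower in GEMM BMDM, beside 31.6% and 25.7% of all genes and 37.8% and 26.9% under the same rule. In GL261 BMDM 88 were higher and 40 lower, beside 34.1% and 28.9% of all genes and 39.3% and 29.5% under the same rule. The median log2 fold change of the 180 was 0.33 in GEMM BMDM and 0.37 in GL261 BMDM, against 0.08 and 0.06 over all genes tested and 0.16 and 0.14 over the genes that met the same rule. Both share the monocyte libraries. The higher counts and these medians include transporters that met the level rule through BMDM. Among those at 5 CPM or more in both groups 54 of 134 were higher and 27 lower in GEMM BMDM, and 58 of 135 were higher and 30 lower in GL261 BMDM. The share of all genes at that level in both groups was not counted, so these values have no background beside them.

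Between models, 40 transporters were higher and 39 lower in GL261 MG than in GEMM MG, beside 18.8% and 15.5% of all genes and 19.1% and 18.1% under the same rule. With no scaling factors the counts were 65 and 19, with a median shift of 0.44 over all genes, and Slc25a11 and Slc6a6 changed direction. In BMDM 24 were higher and 23 lower in GL261 than in GEMM, beside 10.2% and 9.46% of all genes and 10.7% and 10.4% under the same rule. The count of lower ones was 13 without GL261 BMDM library 80766 or 80767, 15 without GEMM BMDM library 68702 and 10 with only these 2 groups in the fit. Shares of the transporters called lay near the background in most comparisons, and the sections below describe which cargoes they carry.

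**Figure D1:**
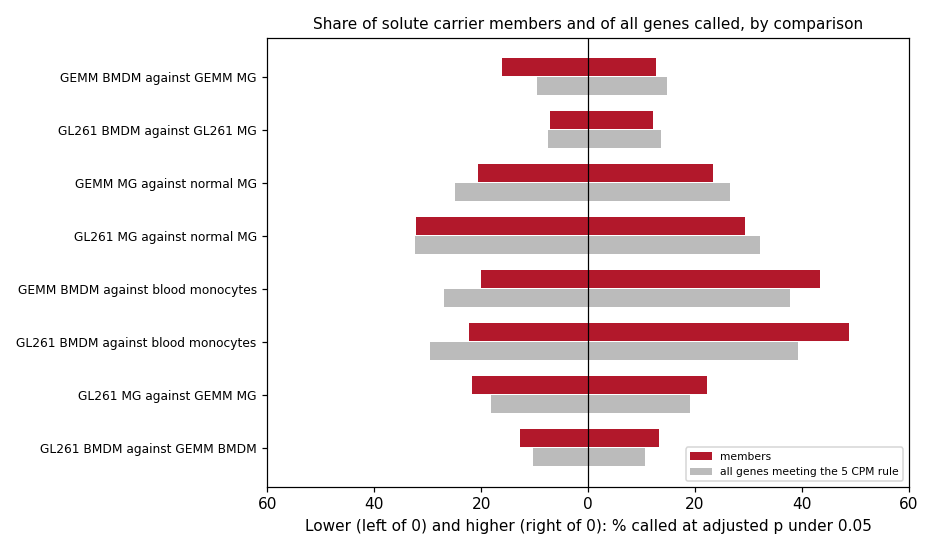
Share of the 180 transporters called in each comparison (red) beside the share of all genes that met the same level rule (grey), with genes called lower drawn left of 0 and genes called higher drawn right of 0, in percent. The red bar passes the grey one most clearly on the right in both comparisons of BMDM with monocytes, 43.3% against 37.8% in GEMM and 48.9% against 39.3% in GL261, and on the left for GEMM BMDM against GEMM MG, 16.1% against 9.63%. In the comparisons with monocytes the red bar includes transporters that met the level rule through BMDM.

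The fructose transporter Slc2a5 led in normal MG and was lower in tumour MG, where the glucose transporter Slc2a1 and the lysosomal hexose transporter Slc2a6 were higher. Of the 13 sugar transporters, 2 were called higher and 5 lower in GEMM MG than in normal MG, beside 26.6% and 24.9% of all genes under the same rule. In GL261 MG 5 were higher and 3 lower, beside 32.2% and 32.3%. Per kilobase, Slc2a5 averaged 26.9 CPM in GL261 MG, 51.7 CPM in GEMM MG and 235 CPM in normal MG, while Slc2a1 averaged 127, 57.5 and 33.8 CPM in the same groups.

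Slc2a1 (chr4:119108711-119137983, plus strand) encodes GLUT1, the widespread glucose transporter. It was at 244, 572 and 428 CPM in GL261 MG and 153, 219.5 and 189.7 CPM in GEMM MG, against 130.1, 94.3 and 107 CPM in normal MG. All 6 tumour libraries lay above the normal ones. The log2 fold change was 1.59 ± 0.27 (SE, adjusted p = 7.4e-05) in GL261 and 0.89 ± 0.26 (adjusted p = 0.011) in GEMM. In BMDM it was at 218, 407 and 239 CPM in GL261 and 92.4, 160.5 and 152 CPM in GEMM, against 28.7 to 44.1 CPM with a median of 36.8 CPM in monocytes. Every BMDM library exceeded every monocyte library, by 2.98 ± 0.24 in GL261 (adjusted p = 1e-08) and 2.03 ± 0.23 in GEMM (adjusted p = 1e-06). Between BMDM and MG it was not called, with -0.22 ± 0.26 in GL261 (adjusted p = 0.60) and -0.47 ± 0.26 in GEMM (adjusted p = 0.22).

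Slc2a6 (chr2:27021363-27027998, minus strand) encodes GLUT6, a hexose transporter of lysosomes. It was at 74.6, 34.8 and 45.8 CPM in GL261 MG and 86.6, 121 and 112 CPM in GEMM MG, against 1.48, 1.32 and 1.89 CPM in normal MG. The groups did not come near each other. This was the largest rise of a sugar transporter in GEMM MG, 6.22 ± 0.34 (adjusted p = 1.2e-09), and it was 4.75 ± 0.32 in GL261 MG (adjusted p = 5.3e-09). It was at 12.5, 14.5 and 15.8 CPM in GL261 BMDM and 42.2, 58.7 and 81.6 CPM in GEMM BMDM, against 105 to 191 CPM in monocytes. BMDM were lower than monocytes by -3.19 ± 0.28 in GL261 (adjusted p = 2.8e-08) and -0.97 ± 0.24 in GEMM (adjusted p = 0.0026). In GL261 tumours BMDM were lower than MG too, by -1.57 ± 0.27 (adjusted p = 0.00063). The same comparison in GEMM, -0.81 ± 0.26 (adjusted p = 0.036), lost its call in several settings (adjusted p = 0.104 without BMDM library BB30101).

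Slc2a5 (chr4:150119283-150144169, plus strand) varied widely among tumour MG, with 137, 105 and 13.6 CPM in GL261 and 177, 88.9 and 224 CPM in GEMM, against 623, 799 and 802 CPM in normal MG. No tumour library reached the lowest normal one. The fall was -3.40 ± 0.73 in GL261 MG (adjusted p = 0.00065) and -2.04 ± 0.69 in GEMM MG (adjusted p = 0.023), the second lost without GEMM MG library BB30101 (adjusted p = 0.104). In BMDM the 3 GL261 libraries stood at 0.543 to 0.637 CPM, the level of monocytes (0.359 to 0.641 CPM), while the GEMM libraries stood at 3.13, 4.10 and 28.9 CPM. The GEMM library with 28.9 CPM was BB30105. Fructose transporter levels in BMDM differed between models by -4.46 ± 0.88 for GL261 against GEMM (adjusted p = 0.0019), and by -2.88 without BB30105 (adjusted p = 0.011). The microglia markers Sall1 and Siglech moved with it. Sall1 was at 0.502 to 1.09 CPM in GL261 BMDM, against 4.95, 4.86 and 29.4 CPM in GEMM BMDM, and Siglech at 1.96 to 3.26 CPM against 41.3, 46.3 and 175 CPM, BB30105 being the highest for each. Whether microglial RNA had a part in the Slc2a5 values of BMDM was not tested.

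Slc2a3 encodes GLUT3, the glucose transporter of neurons and circulating leukocytes. It was at 9.58, 19.999 and 15.3 CPM in GL261 BMDM and 58.1, 16.1 and 18.1 CPM in GEMM BMDM, against 902, 393, 409, 245 and 169 CPM in monocytes. Groups did not overlap, and the fall was -4.81 ± 0.63 in GL261 (adjusted p = 3.9e-06) and -3.57 ± 0.59 in GEMM (adjusted p = 5.6e-05). Neutrophil markers differed in the same direction, with sums of 1.31 to 9.65 CPM in GL261 BMDM and 1592, 70.1 and 6.92 CPM in GEMM BMDM, against 1005 to 11458 CPM in monocytes, and GEMM BMDM 68702 was the highest of its group in both. Most of the sum in GEMM BMDM 68702 was 1 gene, Retnlg (1469 CPM), whereas S100a8 and S100a9 were highest in every monocyte library. What part neutrophils had in the Slc2a3 values was not tested. Monocytes carried more RNA of GLUT3 and less of GLUT1 than the tumour BMDM did. The glucose 6-phosphate exchanger Slc37a2 ran the other way, at 119, 148 and 120.4 CPM in GL261 BMDM and 226, 143 and 129 CPM in GEMM BMDM, against 11.03 to 28.97 CPM in monocytes (3.00 ± 0.32, adjusted p = 3.8e-07, and 3.53 ± 0.33, adjusted p = 7.8e-08).

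Members of the Slc37a family also parted the models. Slc37a3, of the same family of endoplasmic reticulum proteins, was at 46.7, 86.8 and 87.3 CPM in GL261 MG, against 11.01, 11.01 and 12.6 CPM in GEMM MG (2.22 ± 0.23, adjusted p = 4.5e-06). In BMDM it was at 32.3, 56.4 and 59.7 CPM in GL261, against 12.4, 13.5 and 10.8 CPM in GEMM (1.86 ± 0.23, adjusted p = 3.7e-05). Both lineages were higher in GL261, with no overlap. The intestinal glucose symporter Slc5a1 was found at 6.79, 10.8 and 9.36 CPM in GL261 MG and 3.26, 4.88 and 5.07 CPM in GL261 BMDM, and at 0.359 CPM or less in every library of the other groups.

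**Figure D2:**
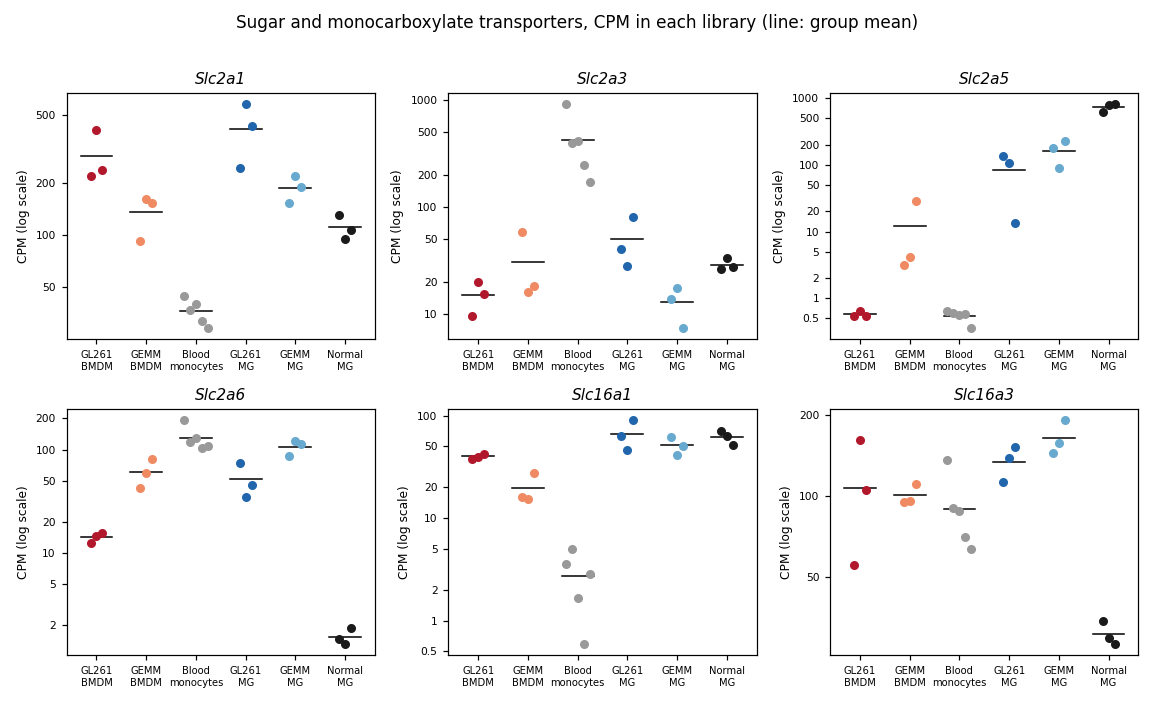
CPM of 6 sugar and lactate transporters in each library (dots, log axis) by group, with a line at the group mean. Slc2a5 is highest in normal MG at 623 to 802 CPM and lies under 1 CPM in GL261 BMDM and monocytes, whereas Slc2a6 and Slc16a3 are lower in normal MG than in every tumour MG library.

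Lactate is moved by the Slc16a monocarboxylate transporters. Slc16a3 encodes MCT4, known for lactate export from glycolytic cells. It was at 113, 138 and 152 CPM in GL261 MG and 145, 157 and 192 CPM in GEMM MG, against 34.1, 29.5 and 27.998 CPM in normal MG. Every tumour MG library held more than the normal ones, by 1.82 ± 0.29 in GL261 (adjusted p = 3.5e-05) and 2.56 ± 0.29 in GEMM (adjusted p = 2.8e-06). Its promoter and that of Slc2a1, printed above, both hold ACGTG, as do 29.7% of the transporters' promoters.

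Slc16a1, which encodes MCT1, was not called in tumour MG against normal MG (-0.20 ± 0.33, adjusted p = 0.63, in GL261 and -0.12 ± 0.33, adjusted p = 0.79, in GEMM). It stood at 38.1, 39.4 and 42.2 CPM in GL261 BMDM and 16.1, 15.4 and 27.4 CPM in GEMM BMDM, against 0.591 to 5.04 CPM in monocytes. BMDM exceeded monocytes by 3.83 ± 0.34 in GL261 (adjusted p = 4.1e-08) and 2.94 ± 0.34 in GEMM (adjusted p = 1.1e-06). In GEMM tumours MG held more of it than BMDM, 61.8, 41.2 and 50.9 CPM, and BMDM were lower by -1.40 ± 0.34 (adjusted p = 0.0067). Slc16a7, which encodes the pyruvate carrier MCT2, was at 10.9, 7.89 and 8.22 CPM in GL261 MG and 16.2, 11.7 and 14.4 CPM in GEMM MG, against 40.1, 44.02 and 49.2 CPM in normal MG (-2.60 ± 0.27, adjusted p = 3.3e-07, and -1.52 ± 0.25, adjusted p = 0.00012).

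Amino acid transporters were mostly higher in BMDM than in monocytes. In GEMM BMDM 16 of the 27 were higher than in monocytes and 1 lower, and in GL261 BMDM 18 were higher and 1 lower. Beside these stand 37.8% higher and 26.9% lower among all genes of the same rule for GEMM, and 39.3% and 29.5% for GL261. The median log2 fold change of the class was 1.13 in GEMM and 1.32 in GL261, against 0.16 and 0.14 over the genes that met the same rule. Of the 27, 26 averaged 5 CPM or more in GL261 BMDM and 21 in GEMM BMDM, against 18 in monocytes, so these counts and medians include members that met the rule through BMDM and had to be higher there. Summed over the class, RNA was at 2798 ± 563 CPM in GL261 BMDM and 2193 ± 24.8 CPM in GEMM BMDM, against 1344 ± 116 CPM in monocytes (SD, n = 3, 3 and 5).

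Slc3a2 (chr19:8706882-8723369, minus strand) encodes the heavy chain CD98 that carries the Slc7a light chains to the surface. It was at 505, 542 and 441 CPM in GL261 BMDM and 461, 521 and 503 CPM in GEMM BMDM, against 40.9, 45.04, 46.4, 37.6 and 42.9 CPM in monocytes. The lowest BMDM library lay far above the highest monocyte library, and the difference was 3.54 ± 0.10 in GL261 (adjusted p = 3.9e-14) and 3.69 ± 0.10 in GEMM (adjusted p = 2e-14). Some of the light chains were also higher in BMDM. Slc7a6 was called in neither model, and Slc7a7 was called higher in GEMM BMDM only. Slc7a5 (LAT1), which imports large neutral amino acids, was at 112, 99.5 and 184 CPM in GL261 BMDM and 53.4, 122 and 119 CPM in GEMM BMDM, against 8.79 to 14.4 CPM in monocytes (3.47 ± 0.32, adjusted p = 6.1e-08, and 3.17 ± 0.32, adjusted p = 2.1e-07). Slc7a8 (LAT2), with a like range of cargoes, was at 136, 161 and 136 CPM in GL261 BMDM and 262, 171 and 218 CPM in GEMM BMDM, against 17.8 to 27.8 CPM in monocytes (2.67 ± 0.27, adjusted p = 1.9e-07, and 3.42 ± 0.28, adjusted p = 1.5e-08).

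Slc7a11 (chr3:49892526-50443614, minus strand), the light chain of the cystine/glutamate exchanger that feeds glutathione synthesis, was highest in GL261 BMDM. It was at 96.7, 70.9 and 69.4 CPM there and 55.4, 30.3 and 23.96 CPM in GEMM BMDM, against 29.9, 8.70, 8.47, 9.45 and 6.46 CPM in monocytes. Only monocyte library 64817, with 29.9 CPM, overlapped the GEMM BMDM. Differences from monocytes were 2.64 ± 0.38 in GL261 (adjusted p = 1.2e-05) and 1.71 ± 0.38 in GEMM (adjusted p = 0.001). In MG it was at 27.98, 26.1 and 37.02 CPM in GL261 and 13.4, 23.9 and 15.6 CPM in GEMM, against 5.07, 4.13 and 5.37 CPM in normal brain. All tumour MG lay above normal MG, by 2.33 ± 0.45 in GL261 (adjusted p = 0.00027) and 1.99 ± 0.45 in GEMM (adjusted p = 0.0016). Within GL261 tumours BMDM exceeded MG by 1.68 ± 0.43 (adjusted p = 0.012, and 0.0559 without MG library 80767).

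Cationic amino acid carriers import arginine and lysine. Slc7a1 was at 38.1, 35.8 and 73.2 CPM in GL261 MG and 7.50, 13.7 and 14.3 CPM in GEMM MG, against 3.45, 2.61 and 5.30 CPM in normal MG, a rise of 3.38 ± 0.37 (adjusted p = 7.6e-07) and 1.78 ± 0.35 (adjusted p = 0.00062). The 3 groups did not overlap and stood in the order GL261, GEMM, normal. Slc7a2 (chr8:40862396-40922308, plus strand), known in macrophages as an arginine importer induced by inflammatory stimuli, was at 143, 98.5 and 962 CPM in GL261 BMDM and 19.5, 65.4 and 12.5 CPM in GEMM BMDM, against 0.385 to 2.22 CPM in monocytes. All BMDM libraries exceeded all monocyte libraries, by 8.13 ± 1.36 in GL261 (adjusted p = 6.8e-05) and 4.63 ± 1.30 in GEMM (adjusted p = 0.0059). The GL261 tumour numbered 80769 stood apart in both lineages, with 962 CPM in BMDM and 309.5 CPM in MG, where the other GL261 MG libraries held 9.86 and 2.87 CPM. In GL261 MG against normal MG the value was 7.18 ± 1.60 (adjusted p = 0.0011), and 3.20 without that library (adjusted p = 0.0305).

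**Figure D3:**
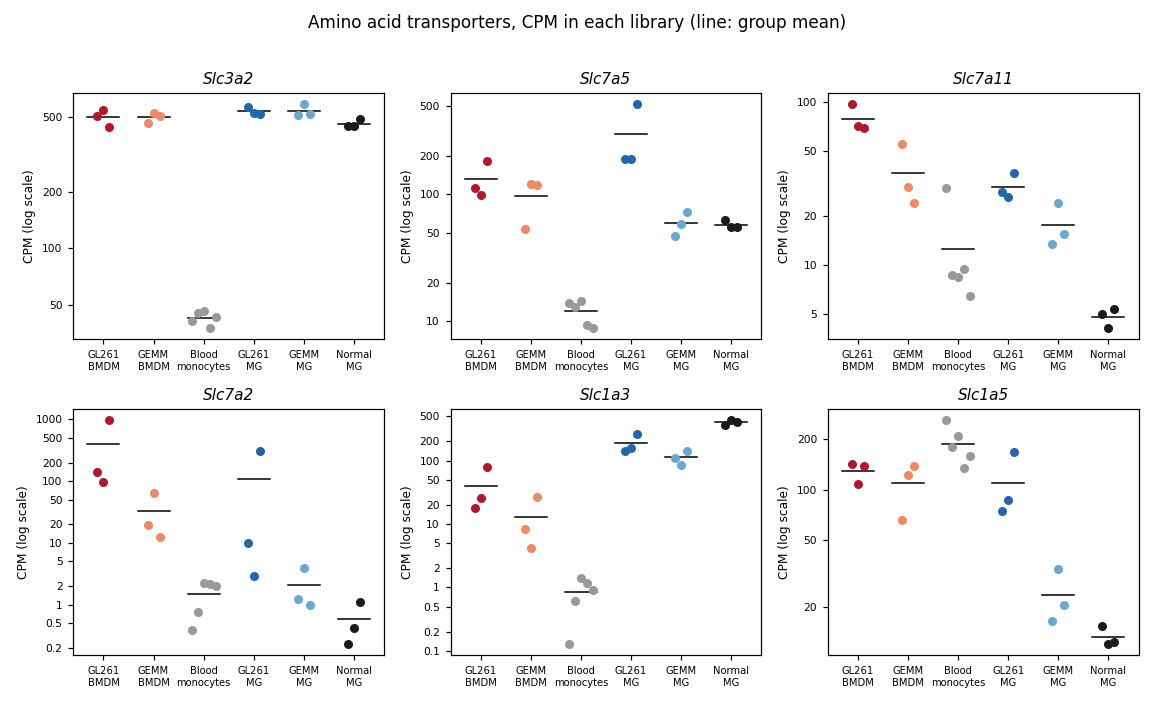
CPM of 6 amino acid transporters in each library (dots, log axis) by group, with a line at the group mean. Slc3a2 lies between 441 and 581 CPM in every BMDM and MG library and at 37.6 to 46.4 CPM in monocytes, and Slc7a2 spans over 2 orders of magnitude between the GL261 MG libraries.

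Glutamate transporters followed another pattern. Slc1a3 (chr15:8634124-8710764, minus strand) encodes GLAST, the astrocyte glutamate transporter that microglia also express. It was at 141, 160.2 and 262 CPM in GL261 MG and 109.6, 86.6 and 140.2 CPM in GEMM MG, against 366, 429.8 and 411 CPM in normal MG. Tumour MG were lower without overlap, by -1.42 ± 0.54 in GL261 (adjusted p = 0.031, and 0.0965 with no scaling factors) and -1.71 ± 0.54 in GEMM (adjusted p = 0.017, and 0.074 without GEMM MG library BB30101). In BMDM it was at 17.6, 25.4 and 77.9 CPM in GL261 and 8.45, 4.13 and 26.2 CPM in GEMM. BMDM were lower than MG of the same model by -1.89 ± 0.55 in GL261 (adjusted p = 0.023, and 0.118 without BMDM library 80766, while the value was -2.87 without BMDM library 80769) and -3.15 ± 0.58 in GEMM (adjusted p = 0.00078). Markers of astrocytes (6 genes) summed to 73.0 to 172 CPM in GL261 MG, 22.7 to 27.9 CPM in GEMM MG and 15.4 to 55.4 CPM in normal MG, and to 34.4 to 178 CPM in GL261 BMDM and 11.7 to 24.5 CPM in GEMM BMDM. Their part in the Slc1a3 values was not tested. Slc1a2, the other main glutamate transporter of astrocytes, stood at 5.28 CPM or less in every tumour library, against 8.59, 12.5 and 30.4 CPM in normal MG.

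Glutamine and small neutral amino acids enter through Slc1a5 (ASCT2) and Slc38a proteins. Slc1a5 was at 74.5, 87.2 and 167 CPM in GL261 MG, against 16.4, 33.4 and 20.5 CPM in GEMM MG and 15.4, 11.998 and 12.3 CPM in normal MG. GL261 MG exceeded both, by 1.78 ± 0.31 over GEMM MG (adjusted p = 0.00031) and 2.72 ± 0.32 over normal MG (adjusted p = 1.4e-06). In GEMM tumours BMDM exceeded MG, with 65.9, 122 and 139 CPM in BMDM (2.21 ± 0.31, adjusted p = 6.7e-05). In GL261 tumours BMDM held 143, 109 and 139 CPM, and their difference from MG was 0.57 ± 0.30 (adjusted p = 0.20). The difference between the models in this lineage contrast, -1.65 ± 0.42, did not pass the threshold (adjusted p = 0.055).

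GL261 macrophages carried a further group of amino acid transporters that were low elsewhere. Slc6a9, the glycine transporter GlyT1, was at 39.9, 53.7 and 133 CPM in GL261 MG, against 1.91, 4.24 and 3.54 CPM in GEMM MG (4.09 ± 0.57, adjusted p = 5.8e-05). In BMDM it was at 9.08, 22.5 and 40.1 CPM in GL261, against 1.03, 2.58 and 2.53 CPM in GEMM (3.42 ± 0.56, adjusted p = 0.00044). Slc6a15, a carrier of branched-chain amino acids and proline, was at 29.1, 34.3 and 94.9 CPM in GL261 MG, against 0.780, 2.73 and 1.43 CPM in GEMM MG (4.53 ± 0.61, adjusted p = 3.7e-05). Its BMDM values were 9.93, 16.7 and 20.1 CPM in GL261, against 0.517, 0.213 and 0.532 CPM in GEMM (5.05 ± 0.65, adjusted p = 5.1e-05). Slc1a4 (ASCT1), a carrier of serine and alanine, was at 20.7, 28.5 and 86.7 CPM in GL261 MG, against 4.55, 6.06 and 6.20 CPM in GEMM MG (2.55 ± 0.55, adjusted p = 0.0019).

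For all 3, the highest library of GL261 MG and the highest of GL261 BMDM came from tumour 80769, and within each GL261 tumour MG held more than BMDM. Over the same GL261 MG libraries, in the order 80766, 80767 and 80769, the markers of oligodendrocyte precursors or glioma cells summed to 426, 610 and 998 CPM, and over the GL261 BMDM libraries to 147, 348 and 270 CPM. Their part in these values was not tested. The promoter of Slc1a4 holds TGATGNAA, as do promoters of Slc7a11 and Slc7a7. Slc7a7 went the other way and was called lower in GL261 than in GEMM in both lineages. For Slc7a11 the difference between the models was not called in MG (0.35 ± 0.42, adjusted p = 0.56) or in BMDM (0.93 ± 0.42, adjusted p = 0.13). In CPM its GL261 libraries were above its GEMM libraries in each lineage, without overlap. CPM leaves out the TMM factors, which were 1.17 to 1.28 in GL261 MG and 0.88 to 0.95 in GEMM MG. The separation in MG is therefore no evidence beside the uncalled difference.

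Of the 9 iron and heme carriers, 6 were called lower and 1 higher in GEMM BMDM than in GEMM MG, beside 9.63% and 14.7% of all genes under the same rule. In GL261 BMDM 2 were lower and 1 higher than in GL261 MG, beside 7.56% and 13.6%. That the lineages differed more in GEMM than in GL261 was not shown: in the test of the difference between the lineage contrasts the lowest adjusted p of the 9 was 0.121, for Slc11a2 (unadjusted p = 0.0053, edgeR). In GL261 MG 5 were lower and 1 higher than in GEMM MG, beside 18.1% and 19.1% under the same rule. The median of the 9 was -0.86 in GEMM BMDM against GEMM MG and -1.15 in GL261 MG against GEMM MG, where the medians of all genes tested were 0.01 and 0.04.

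Slc46a1 (chr11:78465697-78472059, plus strand), a proton-coupled folate transporter that also takes up heme, ranked the groups without overlap between lineages. It was at 9.53, 12.8 and 10.01 CPM in GL261 BMDM, against 62.6, 54.8 and 30.5 CPM in GL261 MG. In GEMM it was at 19.02, 16.7 and 25.4 CPM in BMDM, against 99.2, 113 and 99.96 CPM in MG. BMDM were lower by -1.91 ± 0.23 (adjusted p = 2.5e-05) and -2.35 ± 0.23 (adjusted p = 2.6e-06). Normal MG held 139.8, 159 and 168 CPM, above every tumour MG library, and monocytes 3.72 to 6.11 CPM, below every BMDM library. GL261 MG were lower than normal MG by -1.95 ± 0.23 (adjusted p = 1.5e-06), whereas the difference of GEMM MG, -0.45 ± 0.22, was not called (adjusted p = 0.11). Between models GL261 was lower in both lineages, by -1.50 ± 0.23 in MG (adjusted p = 9.9e-05) and -1.06 ± 0.23 in BMDM (adjusted p = 0.0036).

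Ferroportin, Slc40a1 (chr1:45908068-45926523, minus strand), exports iron from the cell. It was at 107, 80.1 and 48.2 CPM in GL261 MG, against 465.99, 438 and 365 CPM in GEMM MG and 412, 485 and 429 CPM in normal MG. All 3 GL261 libraries lay under the others. Calls were -2.86 ± 0.88 against GEMM MG (adjusted p = 0.018, and 0.0926 without library 80769) and -2.79 ± 0.88 against normal MG (adjusted p = 0.011, and 0.0636 without library 80769). In BMDM it was at 51.6, 18.1 and 45.95 CPM in GL261, against 1204, 146 and 114 CPM in GEMM and 938, 212, 238, 109 and 96.1 CPM in monocytes. GL261 BMDM were lower than monocytes by -3.02 ± 0.85 (adjusted p = 0.0049) and lower than GEMM BMDM by -3.88 ± 0.92 (adjusted p = 0.0069, and 0.0917 without GEMM BMDM library 68702).

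The 2 libraries with most ferroportin, GEMM BMDM 68702 and monocytes 64817, differed from their groups by a wide margin. In GEMM BMDM 68702 markers of neutrophils (6 genes, Elane and Camp listed at 0 in that group) summed to 1592 CPM, against 70.1 and 6.92 CPM in the other GEMM BMDM libraries. In monocytes 64817 they summed to 6558 CPM, less than the 10631 and 11458 CPM of monocytes 64818 and 64819, whose ferroportin stood at 212 and 238 CPM. The other 2 monocyte libraries had 1168 and 1005 CPM, and GL261 BMDM 1.31 to 9.65 CPM. These sums rest on different genes. In GEMM BMDM 68702 Retnlg alone was at 1469 CPM, S100a9 at 93.2 CPM and S100a8 at 27.5 CPM. In every monocyte library S100a8 and S100a9 were the highest of the markers, and Retnlg was at 88.8 to 627 CPM. The gate on tumour cells was Ly6G-, and how fully it removed neutrophils is not given. The part of neutrophils in the ferroportin values was not tested.

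Heme and iron also cross the membranes of vesicles. Slc48a1 (HRG1), which releases heme from phagolysosomes, was at 102, 138 and 94.5 CPM in GEMM MG, against 38.9, 45.5 and 47.4 CPM in normal MG (1.47 ± 0.25, adjusted p = 0.00014). In GL261 MG it was at 58.7, 56.1 and 86.4 CPM, above normal in each library before TMM scaling. With scaling the difference was not called (0.30 ± 0.25, adjusted p = 0.32). GL261 BMDM held 97.0, 99.9 and 142 CPM, more than GL261 MG (1.06 ± 0.25, adjusted p = 0.0062). Slc11a1 was high in all groups, at 185, 261 and 185 CPM in GL261 BMDM and 417, 248 and 271 CPM in GEMM BMDM, against 403 to 517 CPM in monocytes. Only GL261 BMDM were called lower than monocytes (-1.13 ± 0.28, adjusted p = 0.002), and the GEMM value was -0.39 ± 0.27 (adjusted p = 0.23). Slc11a2 (DMT1), the ferrous iron importer of endosomes, was at 32.3, 25.5 and 29.6 CPM in GEMM BMDM, against 56.3, 52.7 and 51.8 CPM in GEMM MG (-0.87 ± 0.14, adjusted p = 0.00034).

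Slc39a8 (ZIP8), an importer of zinc, manganese and iron, was near absent from monocytes. It was at 12.99, 10.45 and 9.60 CPM in GL261 BMDM and 16.7, 15.0 and 22.2 CPM in GEMM BMDM, against 0.153 to 0.897 CPM in monocytes. No libraries overlapped, and the difference was 4.37 ± 0.35 in GL261 (adjusted p = 1.2e-08) and 5.22 ± 0.34 in GEMM (adjusted p = 1.4e-09). Its relative Slc39a14 (ZIP14) was at 60.9, 53.4 and 60.3 CPM in GL261 MG and 44.4, 35.5 and 40.7 CPM in GEMM MG, against 22.8, 23.8 and 23.3 CPM in normal MG (1.01 ± 0.24, adjusted p = 0.0017, and 0.92 ± 0.24, adjusted p = 0.005).

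The mitoferrins Slc25a37 and Slc25a28 bring iron into mitochondria for heme and iron-sulfur cluster synthesis. Slc25a37 (mitoferrin 1) was at 7.77, 9.12 and 6.07 CPM in GL261 BMDM and 7.75, 6.99 and 9.45 CPM in GEMM BMDM, against 56.1 to 66.7 CPM in monocytes. BMDM were lower by -3.00 ± 0.18 in GL261 (adjusted p = 3.2e-10) and -2.78 ± 0.17 in GEMM (adjusted p = 7e-10). In MG it was at 16.0001, 20.7 and 12.8 CPM in GL261 and 11.4, 13.97 and 14.8 CPM in GEMM, against 41.4, 33.5 and 43.5 CPM in normal brain (-1.56 ± 0.17, adjusted p = 8.6e-07, and -1.42 ± 0.17, adjusted p = 5.1e-06). Tumour BMDM and tumour MG were both lower than the cells they were compared with, with no overlap. Slc25a28 (mitoferrin 2) went apart by model, at 35.7, 46.9 and 51.2 CPM in GL261 MG and 14.2, 11.6 and 13.3 CPM in GEMM MG, against 23.4, 21.3 and 24.8 CPM in normal MG. It was called higher in GL261 MG (0.63 ± 0.15, adjusted p = 0.0013) and lower in GEMM MG (-0.69 ± 0.15, adjusted p = 0.0011) than in normal MG, and GL261 MG exceeded GEMM MG by 1.32 ± 0.15 (adjusted p = 8.4e-06).

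**Figure D4:**
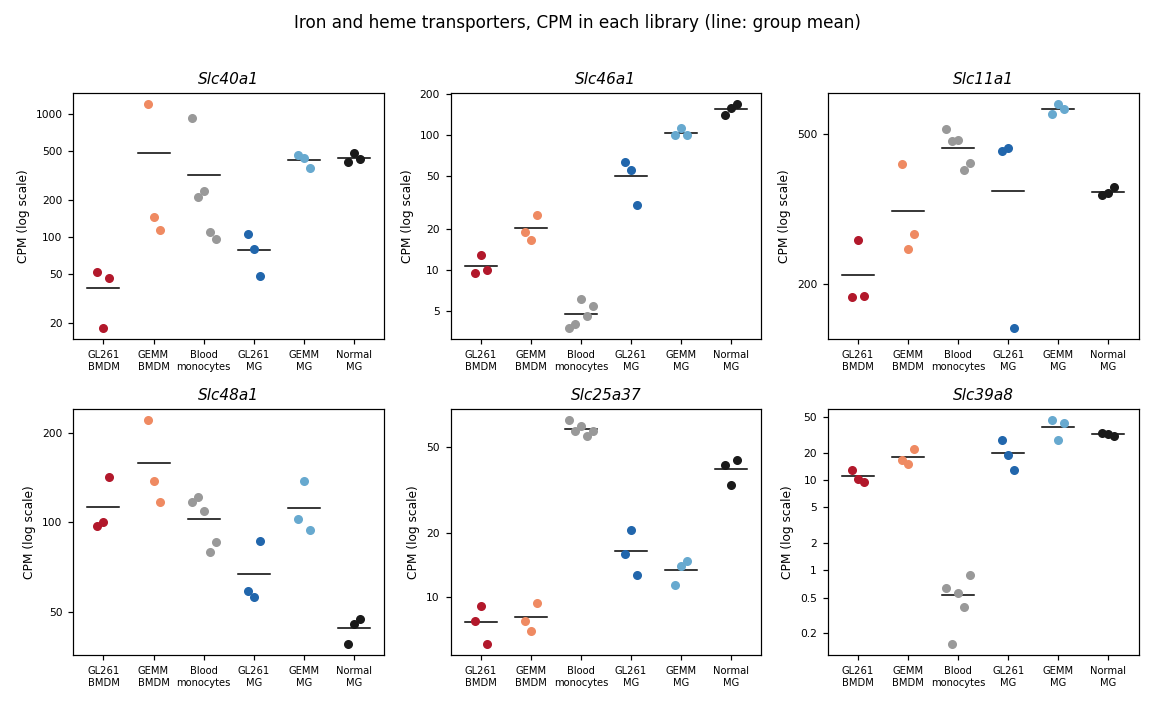
CPM of 6 iron and heme carriers in each library (dots, log axis) by group, with a line at the group mean. Slc25a37 is lower in every tumour library than in every monocyte and normal MG library, and Slc40a1 reaches 1204 CPM in 1 GEMM BMDM library and 938 CPM in 1 monocyte library.

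Of the 18 zinc and copper transporters, 8 were higher in GEMM BMDM than in monocytes and 11 in GL261 BMDM, beside 37.8% and 39.3% of all genes under the same rule. The GEMM count is near that background. Slc30a4, a zinc exporter of endosomes, was at 43.8, 51.03 and 128 CPM in GL261 BMDM and 21.4, 73.8 and 47.9 CPM in GEMM BMDM, against 2.22 to 3.59 CPM in monocytes. BMDM exceeded monocytes without overlap, by 4.74 ± 0.41 in GL261 (adjusted p = 2.9e-08) and 4.22 ± 0.41 in GEMM (adjusted p = 1.3e-07). Slc31a1 (CTR1), the high-affinity copper importer, was at 224, 188 and 166 CPM in GL261 BMDM and 111, 133 and 130.0 CPM in GEMM BMDM, against 74.4 to 97.2 CPM in monocytes (1.24 ± 0.14, adjusted p = 4.6e-07, and 0.75 ± 0.14, adjusted p = 0.00014).

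Among zinc importers of MG, Slc39a4 was higher in GEMM tumours and Slc39a12 lower in both models than in normal brain. Slc39a4 (ZIP4), the zinc importer of the intestine, was at 42.1, 39.9 and 37.5 CPM in GEMM MG, against 6.61, 7.95 and 7.97 CPM in normal MG (2.54 ± 0.45, adjusted p = 0.0002). GL261 MG held 16.7, 17.6 and 16.6 CPM, above normal in all 3 libraries with 0.87 ± 0.43 (adjusted p = 0.094), and lower than GEMM MG by -1.67 ± 0.43 (adjusted p = 0.0064). Slc39a12 (ZIP12), a zinc importer of brain, was at 2.52, 3.64 and 1.34 CPM in GL261 MG and 2.51, 1.71 and 3.14 CPM in GEMM MG, against 29.1, 33.6 and 35.2 CPM in normal MG. Every normal library lay far above the tumour ones (-4.01 ± 0.59, adjusted p = 1.8e-05, and -3.60 ± 0.58, adjusted p = 8.6e-05). Astrocytes are known to express Slc39a12. Their marker sum, given with Slc1a3, was lower in each normal library than in each GL261 MG library, but overlapped between GEMM MG and normal MG. Of those markers Aqp4 was also lower in each tumour library, at 0.654, 1.55 and 0 CPM in GL261 MG and 2.08, 1.41 and 2.47 CPM in GEMM MG, against 2.99, 6.396 and 13.1 CPM in normal MG. Aldh1l1, another of them, went the other way, at 18.8, 13.2 and 9.46 CPM in GL261 MG and 7.85, 6.58 and 7.32 CPM in GEMM MG. Normal MG held 1.45, 2.95 and 4.84 CPM of it. S100b and Gfap were also higher in each GL261 MG library than in each normal one. The part of astrocytes in the Slc39a12 values was not tested.

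Of the 30 ion transporters, 11 were called higher and 10 lower in GL261 MG than in normal MG, beside 32.2% and 32.3% of all genes under the same rule. In GEMM MG 4 were higher and 4 lower, beside 26.6% and 24.9%. The GL261 shares are near their background and the GEMM shares are under it. Among cation-chloride cotransporters, which set cell volume, Slc12a2 (NKCC1) was lower in BMDM. It was at 11.5, 13.1 and 23.8 CPM in GL261 BMDM, against 72.8, 50.3 and 61.5 CPM in GL261 MG, and at 8.26, 7.63 and 23.5 CPM in GEMM BMDM, against 137, 77.1 and 107 CPM in GEMM MG. Lineages did not overlap in either model, with -1.63 ± 0.36 in GL261 (adjusted p = 0.0044) and -3.06 ± 0.38 in GEMM (adjusted p = 2e-05).

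The potassium-chloride cotransporter Slc12a7 (KCC4) was higher in tumour MG of both models than in normal MG. It was at 107, 64.0 and 78.3 CPM in GL261 MG and 52.2, 66.9 and 64.5 CPM in GEMM MG, against 22.9, 30.2 and 25.5 CPM in normal MG (1.36 ± 0.23, adjusted p = 6.1e-05, and 1.35 ± 0.23, adjusted p = 0.00012). No tumour library overlapped the normal ones. Against monocytes it was higher in BMDM too, at 113, 93.4 and 121 CPM in GL261 BMDM and 41.2, 54.5 and 49.4 CPM in GEMM BMDM, against 11.03 to 22.3 CPM in monocytes (2.82 ± 0.20, adjusted p = 3.4e-09, and 1.79 ± 0.20, adjusted p = 7.9e-07).

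Slc9a9, a sodium-proton exchanger of endosomes, was at 66.9, 61.7 and 44.9 CPM in GL261 MG, against 173, 132 and 123 CPM in GEMM MG and 202, 236 and 212 CPM in normal MG. GL261 MG lay under both other groups, by -1.74 ± 0.34 from GEMM MG (adjusted p = 0.00083) and -2.21 ± 0.34 from normal MG (adjusted p = 3.2e-05). For GEMM MG against normal MG the value was -0.47 ± 0.33 (adjusted p = 0.27). Slc4a7, a sodium-bicarbonate cotransporter, was at 46.04, 41.5 and 27.3 CPM in GL261 MG and 48.9, 43.8 and 53.1 CPM in GEMM MG, against 123, 118 and 114 CPM in normal MG (-1.93 ± 0.20, adjusted p = 3.8e-07, and -1.15 ± 0.19, adjusted p = 0.00013).

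**Figure D5:**
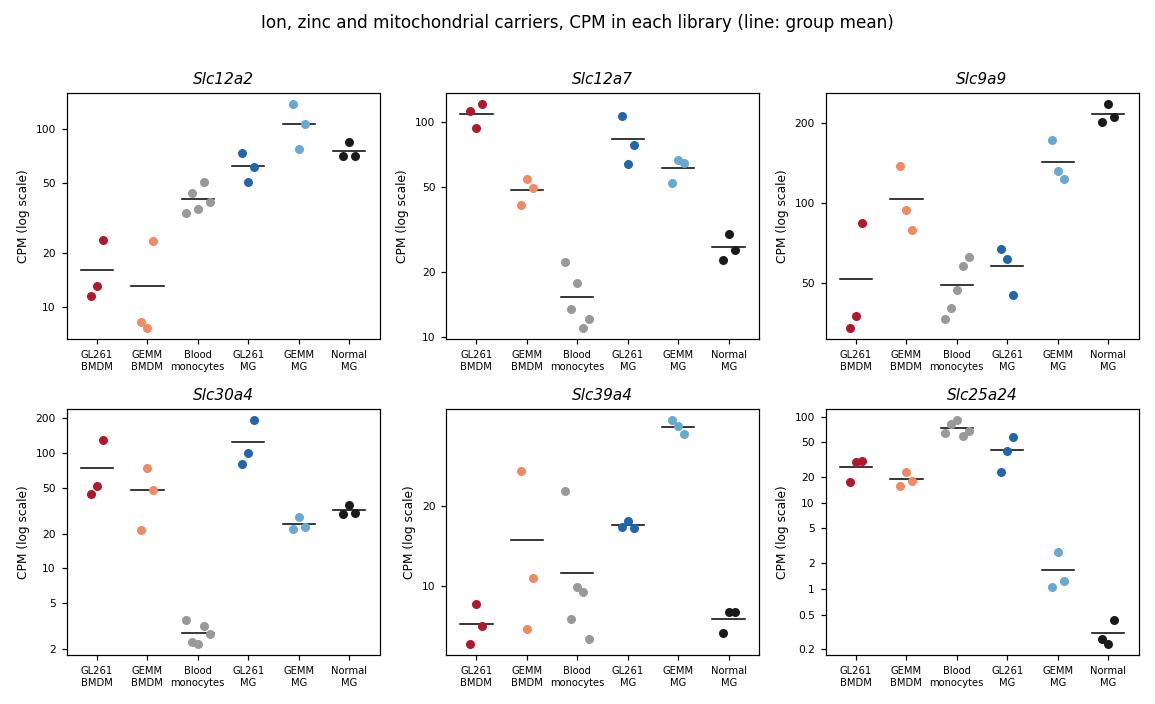
CPM of 3 ion carriers, 2 zinc transporters and the mitochondrial carrier Slc25a24 in each library (dots, log axis) by group, with a line at the group mean. Slc25a24 lies at 22.8 to 58.4 CPM in GL261 MG and at 1.04 to 2.67 CPM in GEMM MG, and Slc12a7 is higher in every tumour library than in every monocyte and normal MG library.

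Among the 32 mitochondrial carriers, Slc25a24 (chr3:109123149-109168457, plus strand) differed most between models. It exchanges ATP-magnesium for phosphate and so sets the adenine nucleotide content of mitochondria. In GL261 it was at 17.4, 29.4 and 30.5 CPM in BMDM, against 22.8, 40.0 and 58.4 CPM in MG. In GEMM it was at 15.5, 22.98 and 17.7 CPM in BMDM, against 1.04, 2.67 and 1.23 CPM in MG. The lineages overlapped in GL261 (-0.33 ± 0.30, adjusted p = 0.48) and were far apart in GEMM (3.49 ± 0.35, adjusted p = 2.9e-06). The difference between these 2 lineage contrasts was -3.82 ± 0.46 (adjusted p = 0.00055). Normal MG held 0.263, 0.227 and 0.427 CPM and monocytes 59.5 to 90.2 CPM, above every tumour library.

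Across all transporters this difference of differences was called higher for 1 and lower for 3, beside 0.605% and 1.02% of all genes tested and 0.778% and 1.18% under the same rule. With the tumour as a block 2 were higher and 4 lower. The other 3 were Slc37a1 at -1.98 ± 0.43 (adjusted p = 0.026), the organic ion carrier Slc22a15 at -2.46 ± 0.60 (adjusted p = 0.045) and Slc25a5 at 0.90 ± 0.20 (adjusted p = 0.026), and each lost its call with only the compared groups in the fit (adjusted p = 0.0863, 0.209 and 0.157 in that order). With the tumour as a block Slc22a15 was at an adjusted p of 0.0554 and Slc25a5 at 0.0528. Slc25a5 was at 1019, 747 and 866 CPM in GL261 BMDM, against 774, 653 and 774 CPM in GL261 MG, and at 667, 779 and 744 CPM in GEMM BMDM, against 985, 915 and 888 CPM in GEMM MG.

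Some other mitochondrial carriers rose in tumour MG of both models. Slc25a39, which imports glutathione into mitochondria, was at 185, 201 and 299 CPM in GL261 MG and 148, 173 and 140.3 CPM in GEMM MG, against 67.2, 68.6 and 78.6 CPM in normal MG. All 6 tumour libraries were higher, by 1.36 ± 0.13 in GL261 (adjusted p = 2.4e-07) and 1.24 ± 0.13 in GEMM (adjusted p = 1.6e-06). Slc25a10, the dicarboxylate carrier, was at 38.04, 33.01 and 39.1 CPM in GL261 MG and 47.4, 48.7 and 35.6 CPM in GEMM MG, against 14.7, 16.5 and 16.2 CPM in normal MG (0.91 ± 0.18, adjusted p = 0.00041, and 1.60 ± 0.19, adjusted p = 3.2e-06). The phosphate carrier Slc25a3 was higher by 0.92 ± 0.18 in both (adjusted p = 0.00036 in GL261 and 0.0006 in GEMM). As a class the 32 mitochondrial carriers went both ways. In GL261 MG 8 were higher and 8 lower than in normal MG, beside 32.2% and 32.3% of all genes under the same rule. In GEMM MG 10 were higher and 8 lower, beside 26.6% and 24.9%. The GL261 shares are under their background and the GEMM shares are near it.

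Against monocytes, carriers of vitamins and nucleosides were mostly higher in BMDM, 5 of 7 vitamin and 4 of 5 nucleoside transporters in each model, beside 37.8% of all genes in GEMM and 39.3% in GL261 under the same rule. Of the 7 vitamin carriers, 6 averaged 5 CPM or more in GL261 BMDM and 7 in GEMM BMDM, against 4 in monocytes, so some met the rule through BMDM. Slc19a1, the reduced folate carrier, was at 35.7, 28.8 and 28.7 CPM in GL261 BMDM and 17.5, 18.8 and 18.4 CPM in GEMM BMDM, against 2.76 to 5.77 CPM in monocytes (2.97 ± 0.22, adjusted p = 5.7e-09, and 2.35 ± 0.22, adjusted p = 1.1e-07). Slc29a1 (ENT1), which equilibrates nucleosides such as adenosine across the plasma membrane, was at 146, 108 and 132 CPM in GL261 BMDM and 123, 99.4 and 105 CPM in GEMM BMDM, against 27.4 to 38.7 CPM in monocytes (1.98 ± 0.19, adjusted p = 1.1e-07, and 1.90 ± 0.19, adjusted p = 2.3e-07). In both cases no BMDM library overlapped the monocytes. The concentrative nucleoside transporter Slc28a2 was the exception in its class, at 18.96, 18.3 and 35.2 CPM in GL261 BMDM and 18.1, 6.87 and 5.52 CPM in GEMM BMDM, against 31.3 to 100.2 CPM in monocytes. It was lower by -2.25 ± 0.51 in GEMM BMDM (adjusted p = 0.0011). In GL261 BMDM, where the groups overlapped, the value was -1.18 ± 0.48 (adjusted p = 0.041), lost in several settings (adjusted p = 0.134 without BMDM library 80767). Tumour MG held 0.994 to 4.25 CPM in GL261 and 0.517 to 0.799 CPM in GEMM, below BMDM of the same model (3.50 ± 0.59, adjusted p = 0.00048, and 4.05 ± 0.63, adjusted p = 0.0002).

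Slc46a3, a lysosomal relative of Slc46a1, was lowest in the GL261 groups. It was at 17.2, 10.504 and 26.8 CPM in GL261 BMDM, against 66.9, 68.2 and 74.4 CPM in GEMM BMDM (-2.08 ± 0.31, adjusted p = 0.00021). In MG it was at 37.8, 33.1 and 15.6 CPM in GL261, against 73.1, 50.6 and 69.8 CPM in GEMM (-1.60 ± 0.31, adjusted p = 0.00079), and 158, 174 and 176 CPM in normal MG. The choline transporter-like protein Slc44a2 had the same order of models, at 111, 124 and 99.7 CPM in GL261 BMDM, against 244, 256 and 255 CPM in GEMM BMDM (-1.32 ± 0.23, adjusted p = 0.00069), and 154, 125 and 77.0 CPM in GL261 MG, against 249, 247 and 322 CPM in GEMM MG (-1.63 ± 0.23, adjusted p = 6.7e-05).

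Slc6a4, the serotonin transporter, was at 1.22 CPM or less in every BMDM and MG library, against 67.6, 57.7, 48.9, 39.2 and 44.8 CPM in monocytes. BMDM were lower than monocytes (adjusted p = 2.8e-07 in GL261 and 1.3e-07 in GEMM). Platelets are known for this transporter. Markers of platelets (6 genes, all with counts) summed to 79.4 to 151 CPM in GL261 BMDM and 69.8 to 113 CPM in GEMM BMDM, against 850 to 2023 CPM in monocytes. Their part in the Slc6a4 values was not tested. Slc18a2, the vesicular monoamine transporter, was at 5.57, 4.99 and 9.82 CPM in GL261 BMDM and 6.87, 21.7 and 8.82 CPM in GEMM BMDM, against 23.5 to 51.8 CPM in monocytes.

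A few transporters were found almost only in GL261. Slc47a1, the drug and toxin exporter MATE1, was at 24.7, 47.4 and 56.6 CPM in GL261 MG and 6.72, 25.3 and 13.4 CPM in GL261 BMDM. It was at 0.717 CPM or less in every library of the other groups, and at 0 or 1 count in the GEMM BMDM libraries. GL261 exceeded GEMM in MG (adjusted p = 8e-06) and in BMDM (adjusted p = 2e-05). The calcium exchanger Slc8a3, at 9.96, 5.19 and 14.8 CPM in GL261 MG, was at 1.32 CPM or less in GEMM MG and 0.0757 CPM or less in normal MG. Its GL261 BMDM libraries held 2.86, 5.41 and 2.08 CPM, and MG held more than BMDM in tumours 80766 and 80769 but not in 80767. For Slc47a1 MG held more in all 3 GL261 tumours.

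Last, transporters with the same lineage call in both models can be set side by side, since the models share no libraries. Both calls do use the same estimate of spread. The share of all genes with the same call in both models was not counted, so the number of transporters listed is no finding. Called lower in BMDM of both were Slc46a1, Slc22a17, Slc25a37, Slc1a3, Slc12a2, Slc2a6, Slc2a5 and Slc25a4. Called higher in both were Slc16a7, Slc6a4, Slc26a11, Slc25a12, Slc28a2, Slc52a3, Slc27a3 and Slc25a20. For Slc6a4 the MG libraries were near the floor, with 4 counts in total in GL261 MG and 5 in GEMM MG. Platelet markers were also higher in BMDM than in MG of each model, and their part was not tested. Slc46a1, Slc22a17, Slc12a2, Slc2a5 and Slc28a2 kept both calls in every alternative run. Each of the other 11 lost 1 or both in at least 1 alternative, with an adjusted p of up to 0.521 (Slc27a3 in GL261). Slc22a17, the receptor for the siderophore-binding lipocalin 2, was at 5.77, 14.5 and 13.9 CPM in GL261 BMDM, against 46.5, 63.5 and 42.1 CPM in GL261 MG, and at 6.26, 2.92 and 8.95 CPM in GEMM BMDM, against 35.7, 39.5 and 31.9 CPM in GEMM MG. Lineages were apart in both models (-1.85 ± 0.34, adjusted p = 0.001, and -2.56 ± 0.35, adjusted p = 5.3e-05). Microglia markers differed in the same direction, as given above, and their part in these values was not tested. Slc25a20, the carnitine-acylcarnitine carrier of fatty acid oxidation, was higher in BMDM, at 68.1, 45.6 and 54.6 CPM against 31.9, 29.04 and 31.8 CPM in GL261 MG, and at 47.6, 123 and 62.6 CPM against 31.04, 45.5 and 25.7 CPM in GEMM MG. The differences were 1.16 ± 0.27 in GL261 (adjusted p = 0.0054) and 1.20 ± 0.27 in GEMM (adjusted p = 0.0034, and 0.0644 with only these 2 groups in the fit), the GEMM value being 0.67 without BMDM library BB30101.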

How the data were processed

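RNA of 20 sorted-cell samples was analysed from the deposited table of raw read counts per gene symbol. Per the submitters' processing notes, which give no order or role, CASAVA 1.8, STAR 2.5.0e, HTSeq, DESeq2 and mm10 were used; no source used here gives the strand setting, so near-identical or antisense genes may share reads. All columns matched a sample (0 left out). Genes passed edgeR's filterByExpr (minimum count 10, total 15), leaving 15363, and were tested in R 4.3.3 with edgeR 4.0.16 (limma 3.58.1) using quasi-likelihood tests with TMM scaling and 1 mean per group. Alternatives were DESeq2 1.42.0, RLE scaling, no scaling factors (added after seeing the data), no filter, only the compared groups, the tumour as a block, and each library left out. BMDM and MG of the same tumour number deviated together (correlations 0.32, 0.22 and 0.20 in GEMM, 0.39, 0.22 and 0.39 in GL261). The fit was tested on simulated data. Coordinates are GRCm38.p6. Transporters, cargo classes and marker lists were chosen with earlier results of these data known. Named transporters were those with the smallest adjusted p among non-overlapping calls of each class (4 per direction), the 6 largest changes per direction at 20 CPM or more, a fixed panel, the 10 highest per kb, those in 1 group only and the neighbours of the threshold. Of these, the text gives those that carry each class. A few genes that met these rules are not reported here.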

Additional observations from a re-analysis of the deposited data

Results flagged for a closer look

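Only monocytes, with 5 libraries, were tested for a library far from the rest of its group. Groups of 3 libraries could not be tested or flagged. Chance picks about 1 in 20. Of 45 transporters tested, 4 were picked out, all in monocyte library 64817. There Slc2a6 was at 191 CPM (next highest 128), Slc37a2 at 28.97 CPM (15.4), Slc40a1 at 938 CPM (238) and Slc7a11 at 29.9 CPM (9.45). The difference between BMDM and MG differed between models for 4 transporters in edgeR's quasi-likelihood test of that difference: -1.98 for Slc37a1, -2.46 for Slc22a15, -3.82 for Slc25a24 and 0.90 for Slc25a5, GL261 minus GEMM on the log2 scale.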

How the results depend on the processing

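With each library left out in turn, counts of transporters called higher and lower ranged over 11 to 23 and 17 to 30 for GEMM BMDM against MG, 14 to 24 and 8 to 18 for GL261 BMDM against MG, 33 to 42 and 22 to 29 for GEMM MG against normal MG, 50 to 54 and 54 to 59 for GL261 MG against normal MG, 68 to 83 and 28 to 37 for GEMM BMDM against monocytes, 78 to 87 and 33 to 39 for GL261 BMDM against monocytes, 29 to 38 and 31 to 45 for GL261 MG against GEMM MG, and 18 to 22 and 13 to 28 for GL261 BMDM against GEMM BMDM. The difference between lineage contrasts gave 0 to 6 and 1 to 8. With no scaling factors, the counts were 10 higher and 41 lower for GL261 BMDM against MG, 37 lower for GL261 MG against normal MG, 65 and 19 for GL261 MG against GEMM MG, and 0 and 11 for the difference between contrasts; Slc25a11 (0.10) and Slc6a6 (0.037) changed sign in GL261 MG against GEMM MG. With only the compared groups, they were 7 and 7 for GL261 BMDM against MG, 10 lower for GL261 BMDM against GEMM BMDM, and 0 and 1 for the difference between contrasts, which had 0 higher with no filter and 7 and 10 with DESeq2. With the replicate block of tumour number, counts were 26 and 29 for GEMM lineages, 30 and 19 for GL261 lineages and 2 and 4 for the difference. The cause of these shifts was not tested. DESeq2 ended 11 calls of named transporters and kept 602, and leaving out scaling factors ended 71 and kept 540. Depth, lowest in monocytes, limits transporters near 0 counts.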
